A study of Mus musculus with 6 samples.

Results

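The genes described here make cholesterol and fatty acids, or control that synthesis. They are 31 genes picked by symbol in a table of 50600 genes, and each symbol was found exactly once. The RNA came from macrophages of pancreatic islets and of epididymal fat, which lies beside the testis. Each tissue had 3 libraries, numbered 2, 4 and 6, and the shared numbers carry the same batch label. A shared number was taken as the same animal, but the main edgeR test treats the 6 libraries as independent. The replicate number as a block is given as an alternative. Both groups came from C57BL/6J male mice, 12 weeks old, on a chow diet, and all cells had been sorted as living, CD45-positive, F4/80-positive and CD64-positive. The labels name no transgene, deletion or treatment for either group, and the sources used here do not say whether a library pools several animals. Values below are in the order of libraries 2, 4 and 6.

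Cholesterol is built from acetyl-CoA through mevalonate, farnesyl diphosphate, squalene and lanosterol. Fatty acids are built from the same precursor by acetyl-CoA carboxylase and fatty acid synthase, then lengthened by elongases and given double bonds by desaturases. Both routes are driven by the SREBP transcription factors, which the escort protein SCAP carries out of the endoplasmic reticulum when sterols are scarce, while the INSIG proteins hold SCAP back when sterols are plentiful. Macrophages also take up cholesterol with dead cells and lipoproteins, and taken-up sterol lowers synthesis through this feedback.

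The libraries held 4089980 to 6923475 counts in islet and 7450890 to 9235591 counts in fat macrophages. All 8 genes of a macrophage list, Ptprc, Adgre1 and Fcgr1 of the sorted proteins among them, had counts in every library. Their levels were not all alike. Mertk was 8.26-fold and Lyz2 2.51-fold lower in islet (edgeR adjusted p = 5.86e-04 and 0.0237), and the other 6 did not pass. RNA of other cells was also present: 12 islet endocrine genes summed to 9733, 6345 and 3612 CPM (counts scaled by the library total and its TMM factor) in islet against 0 to 7.01 CPM in fat, and 10 adipocyte genes to 49.6, 67.8 and 21.5 CPM in fat against 0 to 3.76 CPM in islet. Endothelial genes, a list of 6, summed to 177, 82.2 and 30.7 CPM in fat and to 14.0 to 28.05 CPM in islet. Dendritic cell genes, a list of 6, summed to 83.3 to 97.9 CPM in fat and to 22.7 to 40.3 CPM in islet, with 2 called lower and 1 higher in islet. Heat shock genes, a list of 9, summed to 120700 and 130900 CPM in islet libraries 2 and 4. They summed to 7697 CPM in islet library 6 and to 2423 to 2963 CPM in fat. Islet library 6 also lay above every fat library for all 9 genes, so leaving out islet libraries 2 and 4 does not remove this difference. The values of called genes without both are given below. That fit sets 1 islet library against 3 of fat and assumes the lone library varies like the fat libraries. Over all genes tested the median coefficient of variation was 41.2% in islet and 18.4% in fat, so p-values of that fit are likely too small.

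Among the 4 members that passed the test, the stearoyl-CoA desaturases differed most. Scd1 was far lower in islet than in fat macrophages, its close relative Scd2 was higher, Fads1 was modestly higher and the feedback gene Insig1 was lower. No tested enzyme of the sterol pathway passed. Of the 31 genes, 29 had enough counts to be tested. Of these, 2 were higher and 2 lower in islet macrophages (edgeR, p under 0.05 after Benjamini-Hochberg adjustment over 12152 genes), which is 13.8% of those tested, beside 8.97% of all tested genes called higher, 10.5% called lower and 19.4% called either way. The median log2 difference, islet minus fat, was 0.02 over the 29 genes and 0.01 over all genes tested. All 3 islet libraries lay below all 3 fat libraries for 6 members and above them for 3, beside 22.3% and 18.3% of all genes tested.

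**Figure D1:**
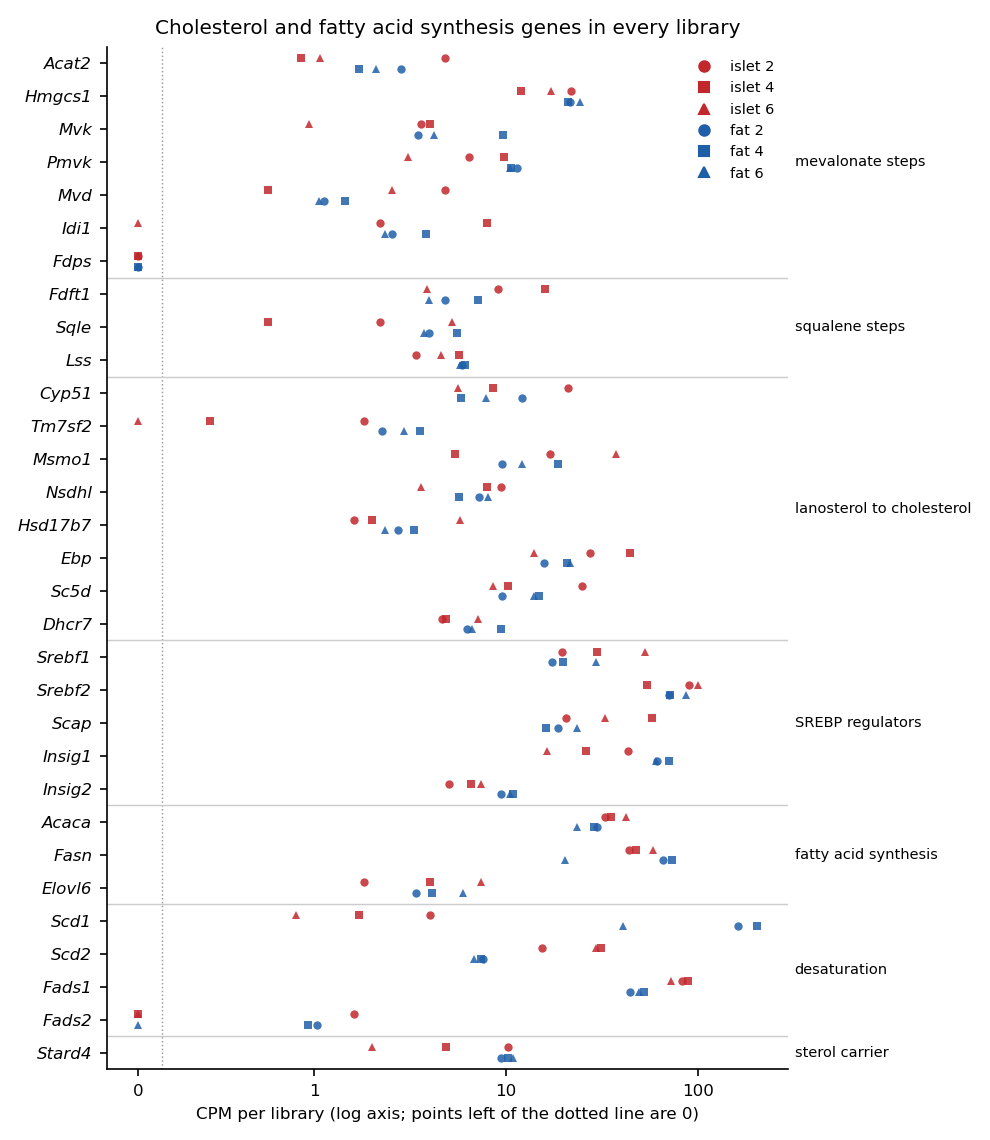
CPM of each of the 31 genes in each library on a log axis, islet in red and fat in blue, with 1 symbol shape per replicate number; points left of the dotted line are 0. Scd1 is the member whose islet and fat libraries are farthest apart, and Fdps is listed at 0 in all 6 libraries.

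Stearoyl-CoA desaturase places the double bond that turns stearate into oleate, and mice have several copies of its gene side by side on chromosome 19. Scd1 (ENSMUSG00000037071.2, GRCm38 chromosome 19, 44394455 to 44407879, minus strand) is the copy known from liver and fat tissue, and Scd2 (ENSMUSG00000025203.5, 44293674 to 44306864, plus strand) is known from brain and many other tissues. Their coding sequences are 90.3% identical over 1065 aligned bases, with 147 bases as the longest identical run. The 90 coding bases where they differ most are shown because reads can be told apart by such stretches, with the 30 differing bases in capitals, 5′ to 3′ on the coding strand, from the GENCODE M21 transcripts; they are coding bases 75 to 164 of Scd1 and 84 to 173 of Scd2.
Scd1: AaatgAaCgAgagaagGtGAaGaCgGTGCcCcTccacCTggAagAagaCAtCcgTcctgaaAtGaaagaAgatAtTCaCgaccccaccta
Scd2: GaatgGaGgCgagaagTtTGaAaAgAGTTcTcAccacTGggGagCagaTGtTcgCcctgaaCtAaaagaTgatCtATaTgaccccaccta
Over their whole transcripts, 4.56% of the 50-base words of Scd1 and 3.97% of those of Scd2 also occur in transcripts of other genes.

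Scd1 stood at 4.02, 1.72 and 0.805 CPM in islet and at 163, 204 and 40.6 CPM in fat. The groups do not overlap, and fat library 6 is the lowest of its group. Means were 2.18 ± 1.66 CPM in islet and 136 ± 84.9 CPM in fat (SD, n = 3), 63.8-fold lower in islet (log2 -5.99 ± 0.78, SE, edgeR adjusted p = 0.00124). In a bulk sample, fewer cells of a type and less RNA per cell cannot be told apart. The islet values rest on 20, 6 and 6 counts and the fat values on 1738, 1540 and 346 counts. The difference passed the test without any 1 library, with log2 values between -6.86 and -5.50, and reached -7.45 with an adjusted p = 0.126 without islet libraries 2 and 4.

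Adipocytes are known for high levels of Scd1, and the adipocyte list moved with it. Its 10 genes summed to 49.6, 67.8 and 21.5 CPM in fat, the order in which Scd1 ran there. All 10 had counts in every fat library. In islet the defining genes Adipoq, Plin1, Lep and Cidec were at 0 in all 3 libraries, as were the rest of the list except Acvr1c, a receptor gene, at 0.603, 0 and 3.76 CPM. Stromal genes, a list of 8, ran at 407, 326 and 92.8 CPM in fat and at 1.81 to 4.57 CPM in islet. The part of such RNA in the Scd1 difference was not tested. An order shared over 3 libraries can easily arise by coincidence, here and in the matches of order given below.

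Scd2 went the other way. It stood at 15.5, 31.5 and 29.4 CPM in islet and at 7.62, 7.40 and 6.80 CPM in fat, with no overlap. The fat libraries lie close together and islet library 2 is the lowest of its group. Scd2 was 3.48-fold higher in islet macrophages (log2 1.80 ± 0.37, SE, edgeR adjusted p = 0.0100). It missed the threshold without fat replicate 2, 4 or 6 (adjusted p = 0.0560, 0.0625 and 0.0566), at log2 values of 1.82, 1.75 and 1.74. Without islet libraries 2 and 4 the log2 difference was 1.93. Endocrine genes were highest in islet library 2, where Scd2 was lowest. Pancreatic acinar genes, a list of 10, summed to 5.63, 89.2 and 11.4 CPM in islet, the order in which Scd2 ran there, and to 1.79 to 2.91 CPM in fat. The part of either RNA in the Scd2 difference was not tested.

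The balance between the copies needs no scaling between libraries. The log2 ratio of Scd1 to Scd2 counts was -1.92, -4.09 and -5.08 in islet and 4.42, 4.77 and 2.57 in fat. Scd2 had more counts than Scd1 in every islet library and fewer in every fat library. The means differed by 7.61 on the log2 scale, with islet the lower (exact two-sided permutation test, p = 0.1, the smallest that 3 libraries against 3 can give). With same-numbered libraries as pairs, the exact sign-flip test gave p = 0.25, the smallest that 3 pairs can give. On the scale of CPM per kilobase of exon, Scd1 ranked 1 of 30 detected members in fat, at 27.8, and 27 in islet, at 0.446. Scd2 ranked 19 in fat, at 1.33, and 7 in islet, at 4.66.

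Fads1 encodes the delta-5 desaturase, which makes arachidonic acid. Its gene (ENSMUSG00000010663.4) lies on chromosome 19 (GRCm38, 10182888 to 10196877, plus strand) next to Fads2, the delta-6 desaturase gene that acts earlier on the same chain. Fads1 stood at 82.6, 89.2 and 73.0 CPM in islet and at 44.4, 52.6 and 49.5 CPM in fat, with no overlap and a small spread in both groups. It was 1.67-fold higher in islet (log2 0.74 ± 0.22, SE, edgeR adjusted p = 0.0463). This call sat at the threshold and was lost with the replicate number as a block (adjusted p = 0.0965), with RLE or upper-quartile factors (0.0559 and 0.0561), with no low-count filter (0.155), with protein-coding genes alone (0.0549), without islet replicate 2 or 4 (0.0905 and 0.0657), without both (log2 0.50, adjusted p = 0.0988) or without fat replicate 2, 4 or 6 (0.221, 0.170 and 0.154). Per kilobase of exon Fads1 ranked 1 among the members in islet, at 17.0 CPM, and 4 in fat, at 10.2 CPM. Fads2 was barely detected, with 8, 0 and 0 counts in islet and 11, 7 and 0 counts in fat, and was not tested. A count of 0 there allows up to 3 counts, which is 0.858 CPM in islet library 4, 0.403 CPM in islet library 6 and 0.352 CPM in fat library 6.

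**Figure D2:**
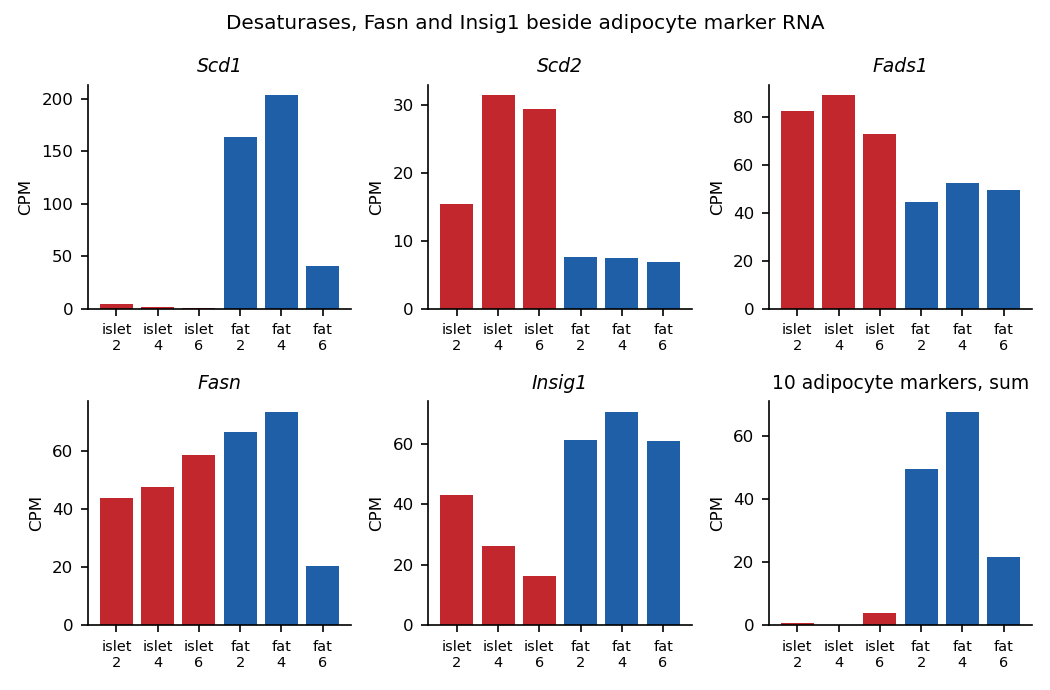
CPM in each of the 6 libraries, islet in red and fat in blue, 1 bar per library, for Scd1, Scd2, Fads1, Fasn, Insig1 and the sum of 10 adipocyte marker genes; the axes start at 0 and differ between panels. Scd1, Scd2, Fasn, Insig1 and the adipocyte sum are lowest in fat library 6 among the fat libraries. Scd2 and Fads1 are higher in all 3 islet libraries than in any fat library.

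Of the 3 enzymes that build the saturated chain, 0 passed in edgeR, DESeq2 or limma voom and 0 had an unadjusted p under 0.05. Acaca, acetyl-CoA carboxylase, which commits acetyl-CoA to fatty acids, stood at 32.7, 35.2 and 42.5 CPM in islet and at 30.0, 29.0 and 23.5 CPM in fat (log2 0.42 ± 0.25, SE, edgeR adjusted p = 0.290). The groups do not overlap, but the gap is small, and 30.4% of the 50-base words of Acaca occur in transcripts of other genes, with a processed pseudogene as the main partner. Fasn, fatty acid synthase, stood at 43.8, 47.5 and 58.5 CPM in islet and at 66.3, 73.4 and 20.4 CPM in fat (log2 -0.10 ± 0.43, adjusted p = 0.904). Its islet values lie between fat library 6 and the other fat libraries, and its order in fat is that of Scd1 and of the adipocyte genes. Elovl6, which lengthens palmitate to stearate, the substrate of the desaturases above, stood at 1.81, 4.00 and 7.38 CPM in islet and at 3.39, 4.10 and 5.98 CPM in fat (log2 -0.01 ± 0.66, adjusted p = 0.991). Its groups overlap. The 7 fatty acid members together summed to 182.0, 209.0 and 211.6 CPM in islet and to 316.1, 370.9 and 146.7 CPM in fat, and without Scd1 to 178.0, 207.3 and 210.8 CPM in islet and 152.7, 167.3 and 106.2 CPM in fat.

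The regulators of both routes were expressed in all libraries. Insig1 encodes an INSIG protein and is itself switched on by SREBP, so its RNA is widely read as a marker of that pathway. The gene (ENSMUSG00000045294.11) lies on chromosome 5 (GRCm38, 28071363 to 28078662, plus strand). It stood at 43.2, 26.3 and 16.4 CPM in islet and at 61.5, 70.7 and 60.9 CPM in fat, with no overlap and a wider spread in islet. Insig1 was 2.26-fold lower in islet (log2 -1.17 ± 0.35, SE, edgeR adjusted p = 0.0479). The call was lost when islet replicate 4 was left out (adjusted p = 0.0832) or fat replicate 2, 4 or 6 (0.134, 0.132 and 0.117), at log2 values between -1.22 and -1.12. Without islet libraries 2 and 4 the log2 difference was -2.05. Within islet, Insig1 ran in the order of the endocrine genes, highest in library 2 and lowest in library 6. Within fat, Insig1 ran in the order of the adipocyte genes, highest in library 4 and lowest in library 6, though its libraries 2 and 6 lay close together. The part of either RNA in the Insig1 difference was not tested.

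Insig2, the second INSIG gene, known in mouse liver for a different control, stood at 5.02, 6.58 and 7.38 CPM in islet and at 9.40, 10.8 and 10.6 CPM in fat. All islet libraries were lower here too, but the test was not passed (log2 -0.69 ± 0.39, SE, edgeR adjusted p = 0.266). The log2 ratio of Insig1 to Insig2 was 3.08, 1.98 and 1.14 in islet and 2.70, 2.70 and 2.52 in fat, which overlap (exact two-sided permutation test, p = 0.4). Scap stood at 20.5, 58.0 and 32.9 CPM in islet and at 18.8, 16.1 and 23.6 CPM in fat (log2 0.92 ± 0.39, edgeR adjusted p = 0.143). The groups overlap. Of its exonic length 13.2% lies opposite another gene, and the sources used here do not give the strand setting.

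The transcription factors themselves did not pass. Srebf2, which mainly drives the sterol genes, stood at 89.8, 54.3 and 100.1 CPM in islet and at 71.1, 71.6 and 86.8 CPM in fat (log2 0.09 ± 0.28, SE, edgeR adjusted p = 0.854). Srebf1, which mainly drives the fatty acid genes, stood at 19.7, 30.0 and 52.9 CPM in islet and at 17.3, 19.8 and 29.4 CPM in fat (log2 0.63 ± 0.40, adjusted p = 0.322). In both cases the groups overlap. The log2 ratio of Srebf1 to Srebf2 counts was -2.18, -0.85 and -0.92 in islet and -2.04, -1.85 and -1.56 in fat (exact two-sided permutation test, p = 0.4). Without islet libraries 2 and 4 the log2 difference of Srebf1 was 1.17.

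The promoters of Insig1, which fell, and of Hmgcs1 and Fasn, which stand for the sterol and the fatty acid arm and did not pass, are shown for the elements through which SREBP and its partner NF-Y are known to act. Each is the 250 bases before the RefSeq start, 5′ to 3′ on the gene's strand, in GRCm38.p6: Insig1 at chr5:28071162-28071411 (plus strand), Hmgcs1 at chr13:119690101-119690350 (plus strand) and Fasn at chr11:120824548-120824797 (minus strand). Capitals mark a sterol regulatory element (TCACNCCAC) or a CCAAT box on either strand.
Insig1: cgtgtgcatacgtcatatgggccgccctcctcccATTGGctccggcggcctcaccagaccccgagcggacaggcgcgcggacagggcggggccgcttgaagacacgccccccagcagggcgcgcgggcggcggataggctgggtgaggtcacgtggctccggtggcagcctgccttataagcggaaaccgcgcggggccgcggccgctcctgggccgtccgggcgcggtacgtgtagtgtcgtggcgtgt
Hmgcs1: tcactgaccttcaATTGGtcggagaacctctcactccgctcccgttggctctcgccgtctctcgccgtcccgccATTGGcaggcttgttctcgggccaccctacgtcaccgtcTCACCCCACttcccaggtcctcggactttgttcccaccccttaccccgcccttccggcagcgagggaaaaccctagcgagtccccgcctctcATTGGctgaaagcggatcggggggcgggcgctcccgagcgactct
Fasn: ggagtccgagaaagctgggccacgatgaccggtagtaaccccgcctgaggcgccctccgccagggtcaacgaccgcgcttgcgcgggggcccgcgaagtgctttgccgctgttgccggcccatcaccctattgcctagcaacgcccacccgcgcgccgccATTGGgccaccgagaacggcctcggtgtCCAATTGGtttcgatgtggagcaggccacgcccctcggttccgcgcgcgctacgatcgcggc
Of the 31 genes, 24 matched the RefSeq promoter table. The sterol element was found in 1 of these 24, Hmgcs1, starting 137 bases before the start, and in 1.22% of 27025 genes. A CCAAT box was found in 19 of the 24 and in 37.5% of all genes, with 1 in Insig1 and 3 each in Hmgcs1 and Fasn, where a box on each strand overlaps as CCAATTGG. The GC box GGGCGG was found in 20 of the 24 and 35.4% of all genes, and the E-box CACGTG in 5 of the 24, Insig1 among them, and 6.86% of all genes. A match describes letters in this window and no binding was measured. The search for the sterol element used 1 fixed pattern, so elements with other letters or outside the window would be missed.

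Sterol pathway enzymes showed no difference that passed the test at any step. Of 18 listed, 17 were tested, 0 were higher and 0 lower in edgeR, 0 had an unadjusted p under 0.05, and DESeq2 and limma voom also called 0. Their log2 differences ran from -2.06 to 1.14 with a median of 0.02, 9 of them above and 8 below 0, with SE from 0.32 to 1.22, and a median SE of 0.58, so a 2-fold difference in a single enzyme may not have been detectable at this depth. The 18 genes together summed to 166.5, 141.2 and 120.9 CPM in islet and to 123.3, 149.1 and 133.6 CPM in fat, and these ranges overlap. Without islet libraries 2 and 4, 5 of the 17 passed: Mvk, Pmvk, Idi1 and Tm7sf2 lower and Msmo1 higher, named after their values were seen. In that fit 14.4% of 14324 tested genes passed as higher, 20.4% as lower and 34.8% in either direction.

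**Figure D3:**
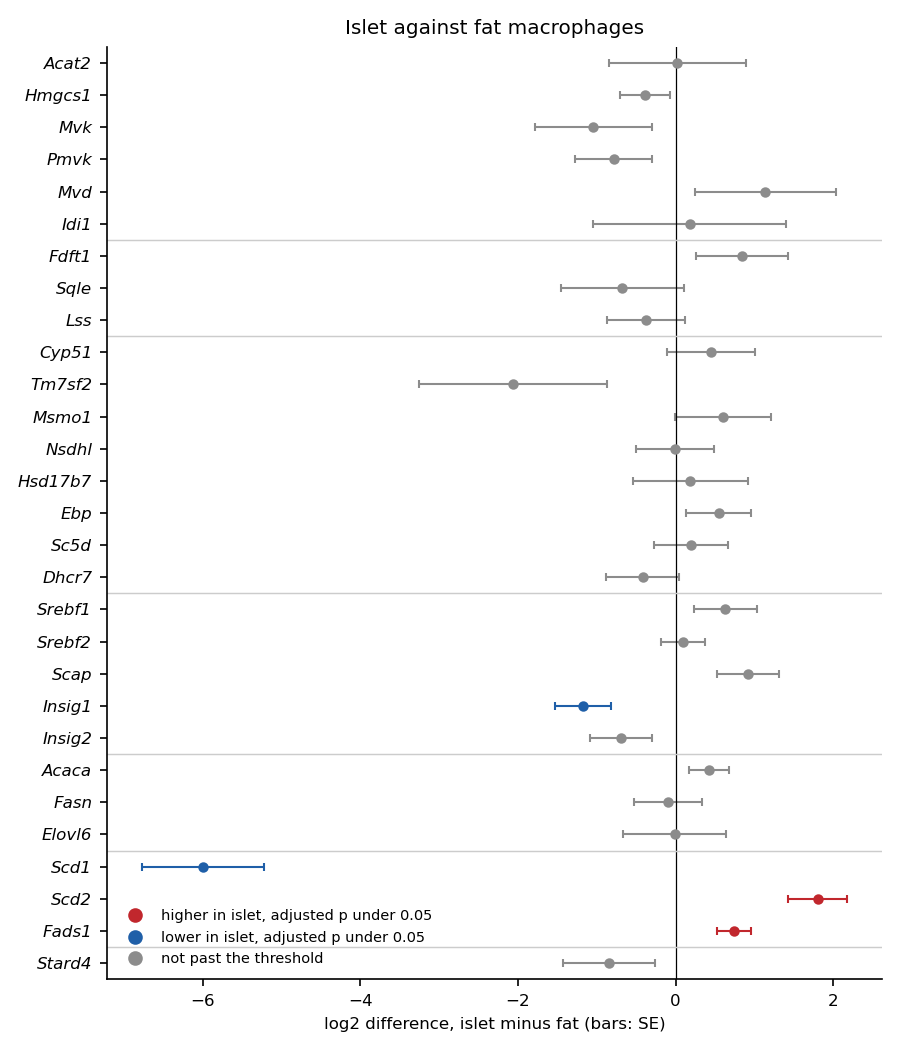
Log2 difference, islet minus fat, of the 29 tested genes with the SE as bars, in pathway order from mevalonate synthesis at the top to the sterol carrier at the bottom. The 4 coloured points passed the edgeR test, and the 17 sterol enzymes in the top 3 blocks lie on both sides of 0.

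In the mevalonate steps, Hmgcs1, which makes the HMG-CoA from which mevalonate comes, stood at 21.9, 12.0 and 17.2 CPM in islet and at 21.7, 21.02 and 24.3 CPM in fat (log2 -0.39 ± 0.32, SE, edgeR adjusted p = 0.449). Islet library 2 lies within the fat range and the other islet libraries lie below it. Acat2, which joins acetyl-CoA units, Mvk, Pmvk and Mvd, which phosphorylate and decarboxylate mevalonate, and Idi1, which isomerises its product, had means of 2.25 to 6.41 CPM in islet and 1.21 to 10.9 CPM in fat. Pmvk was the member of this block whose groups did not overlap, at 6.43, 9.72 and 3.09 CPM in islet and 11.5, 10.6 and 10.6 CPM in fat (log2 -0.79 ± 0.49, adjusted p = 0.307). Idi1 had 11, 28 and 0 counts in islet libraries 2, 4 and 6, so its islet libraries lay on both sides of the fat range of 2.35 to 3.83 CPM. Of the 50-base words of Acat2 39.1%, and of those of Idi1 25.3%, occur in other transcripts. Fdps, farnesyl diphosphate synthase, is listed at 0 in all 6 libraries and gives no value. A same-strand gene model covers 26.7% of its exonic length, and the sources used here do not say how reads shared by several genes were counted.

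In the squalene steps, Fdft1, squalene synthase, which commits the pathway to sterols, stood at 9.04, 16.01 and 3.89 CPM in islet and at 4.80, 7.14 and 3.99 CPM in fat (log2 0.84 ± 0.58, SE, edgeR adjusted p = 0.366). The islet libraries span the whole fat range, and 18.3% of the exonic length of Fdft1 lies opposite Ctsb, a cathepsin gene. Sqle, squalene epoxidase, an oxygen-dependent control step, stood at 2.21, 0.572 and 5.23 CPM in islet and at 3.95, 5.55 and 3.75 CPM in fat (log2 -0.67 ± 0.78, adjusted p = 0.602). The islet values rest on 11, 2 and 39 counts. Lss, which closes the rings to lanosterol, was lower in all islet libraries, at 3.42 to 5.72 CPM against 5.75 to 6.08 CPM (adjusted p = 0.643).

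In the steps from lanosterol to cholesterol, Cyp51, the lanosterol demethylase, stood at 21.1, 8.58 and 5.64 CPM in islet and at 12.1, 5.82 and 7.86 CPM in fat (log2 0.44 ± 0.56, SE, edgeR adjusted p = 0.632). Its groups overlap. Msmo1, a sterol oxidase, had the widest islet range of this block, at 17.1, 5.43 and 37.7 CPM against 9.50, 18.6 and 12.1 CPM in fat (log2 0.60 ± 0.61, adjusted p = 0.545). Ebp, the sterol isomerase, had the highest level per length among the 18 sterol genes in both tissues, at 12.4 CPM per kilobase in islet and 8.42 in fat. It stood at 27.5, 44.3 and 14.0 CPM in islet and at 15.9, 20.9 and 21.6 CPM in fat (log2 0.54 ± 0.41, adjusted p = 0.414). Tm7sf2, a sterol reductase, was at 1.81, 0.286 and 0 CPM in islet and at 2.26, 3.57 and 2.93 CPM in fat, with no overlap, from 9, 1 and 0 counts in islet (log2 -2.06 ± 1.19, adjusted p = 0.274). The other members of this block, the dehydrogenases Nsdhl and Hsd17b7, the desaturase Sc5d and the reductase Dhcr7, had overlapping groups, log2 differences of -0.42 to 0.19 and adjusted p from 0.579 to 0.992. Stard4, a soluble carrier that moves cholesterol between membranes, stood at 10.2, 4.86 and 2.01 CPM in islet and at 9.40, 10.3 and 10.9 CPM in fat (log2 -0.85 ± 0.58, adjusted p = 0.364). Islet library 2 lies within the fat range and the others lie well below it. Without islet libraries 2 and 4 the log2 difference of Stard4 was -2.41.

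**Figure D4:**
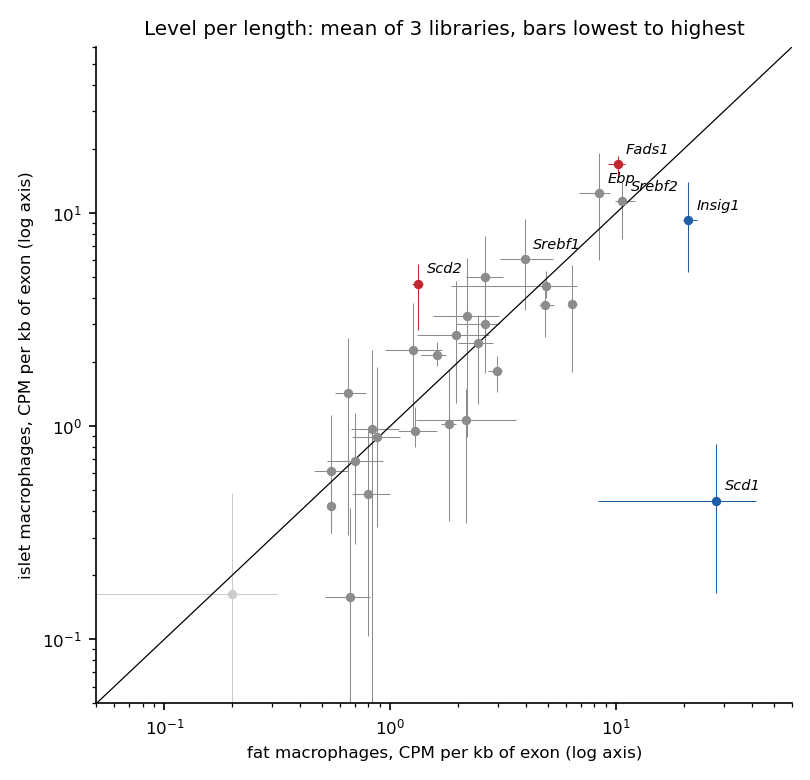
Level of each detected member in islet against fat macrophages, in CPM per kilobase of exon on log axes, with points at the mean of 3 libraries and bars from the lowest to the highest library (bars that reach 0 stop at the edge); the line marks equal levels. Scd1 lies far below the line, Scd2 and Fads1 above it, colours mark the 4 genes that passed the test, and the pale point is Fads2, which was not tested.

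Levels were ordered per kilobase of exon. In fat the highest were Scd1 at 27.8, Insig1 at 20.8, Srebf2 at 10.7, Fads1 at 10.2 and Ebp at 8.42 CPM per kilobase. The fat ranges of Scd1 (8.30 to 41.6) and Insig1 (19.7 to 22.9) overlap, as do those of Srebf2 (9.89 to 12.1) and Fads1 (9.22 to 10.9) and of Fads1 and Ebp (6.88 to 9.34), while Insig1 and Srebf2 do not overlap. In islet the highest were Fads1 at 17.0, Ebp at 12.4, Srebf2 at 11.3, Insig1 at 9.25 and Srebf1 at 6.07 CPM per kilobase. Each of these overlaps its neighbour in that order. Sqle, Lss, Hsd17b7 and Elovl6 were low in both tissues, at 0.423 to 0.797 CPM per kilobase. Tm7sf2 (0.159 in islet and 0.663 in fat) and Fads2 (0.163 in islet and 0.198 in fat) were low in both as well.

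Lists of neighbouring lipid pathways were examined in the same fit, with 67 of 75 listed genes tested. Of these, 8 were higher and 6 lower in islet macrophages, beside 8.97% and 10.5% of all genes tested, which puts the lists together near the background. Their median log2 difference was 0.14. Of 12 genes that process SREBP or degrade INSIG proteins, Erlin1 alone passed. It was lower in islet, at 21.3, 26.3 and 22.3 CPM against 40.0, 50.4 and 41.3 CPM in fat (log2 -0.92 ± 0.25, SE, edgeR adjusted p = 0.0321), but not with the replicate number as a block (adjusted p = 0.0639), without islet replicate 2 (0.0784) or without fat replicate 2, 4 or 6 (0.1, 0.130 and 0.0950). ERLIN1 is a membrane protein of the endoplasmic reticulum that is known to bind cholesterol and the SREBP complex in human cells. The 9 tested genes of the isoprenoid branch gave 0 calls in edgeR and limma voom and 3 in DESeq2, with 3 at an unadjusted p under 0.05. The 7 of other sterol steps and carriers gave 0 calls in edgeR, DESeq2 and limma voom, with 1 at an unadjusted p under 0.05.

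Another list holds genes that store cholesterol as ester and release it from lysosomes. Of 6 tested, 5 were higher in islet macrophages and 0 lower in edgeR, beside 8.97% of all genes tested called higher. The list was chosen with earlier results of these data known, so this count is not a test of the list. The median log2 difference was 1.21. Nceh1, which cleaves cholesterol esters, stood at 182, 124 and 239 CPM in islet and at 43.3, 51.7 and 52.8 CPM in fat (log2 1.89 ± 0.29, SE, edgeR adjusted p = 0.00271). Soat1, which makes cholesterol esters, stood at 204, 246 and 299 CPM in islet and at 79.6, 62.6 and 106 CPM in fat (log2 1.59 ± 0.28, adjusted p = 0.00533). Neither overlaps, and both passed without any 1 library. The other 3, named after their values were seen, were Lipa, the lysosomal acid lipase, and Npc1 and Npc2, which carry cholesterol out of the lysosome, with log2 differences of 1.19, 1.21 and 1.21 and adjusted p = 0.0278, 0.0489 and 0.0360. Each of these 3 missed the threshold without fat replicate 2, 4 or 6 (adjusted p from 0.0636 to 0.204). Npc2 also missed it with the block (0.0535) and without islet replicate 2 or 4 (0.0996 and 0.0698), and Npc1 without islet replicate 2 (0.0765). Without islet libraries 2 and 4, Npc2 fell back to a log2 difference of 0.32 (adjusted p = 0.299).

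**Figure D5:**
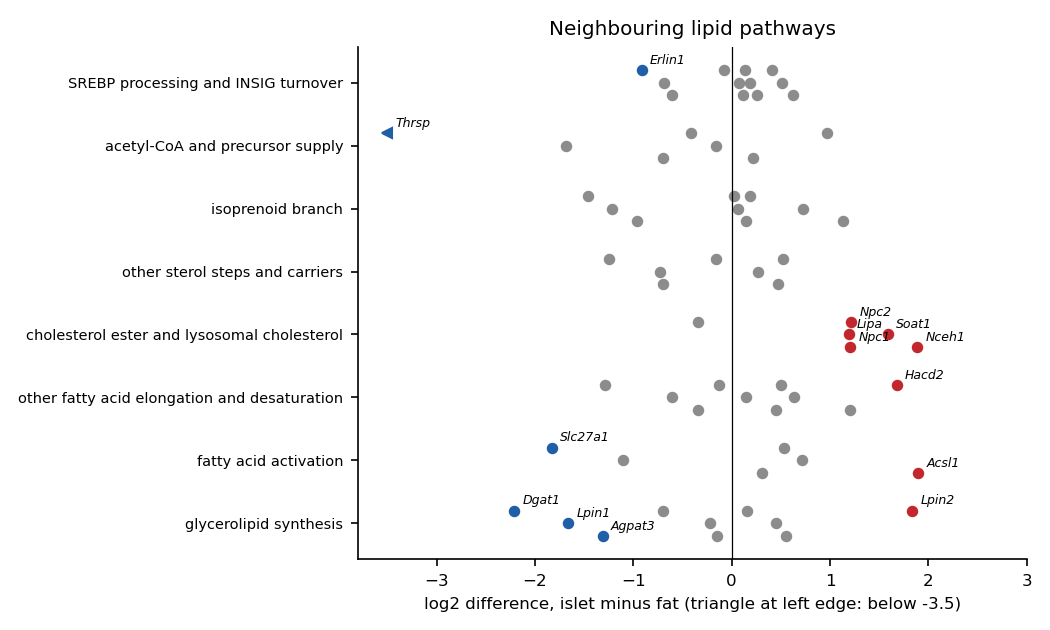
Log2 difference, islet minus fat, of the 67 tested genes of neighbouring lipid pathways, 1 row per list, with genes past the edgeR threshold coloured and named. The 5 named genes of the cholesterol ester list lie between 1.19 and 1.89, and Thrsp, drawn at the left edge, has no islet counts.

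In the precursor list Thrsp, a lipogenic regulator known from fat and liver, was the 1 call among 7 genes in edgeR and in limma voom, while DESeq2 made 2. It had 0 counts in all islet libraries and stood at 8.56, 17.3 and 3.05 CPM in fat, at least 15.5-fold lower in islet taking 3 counts in each library as the floor (edgeR adjusted p = 0.00697). Its order in fat is again that of the adipocyte genes, whose part was not tested.

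Genes that activate and esterify fatty acids went both ways. Of 6 tested activation genes, 1 was higher and 1 lower in islet, and of 10 glycerolipid genes 1 was higher and 3 lower. Over all genes tested, 8.97% were called higher and 10.5% lower. Acsl1, a long-chain acyl-CoA synthetase, was higher at 162, 95.5 and 153 CPM in islet against 36.6, 38.9 and 34.5 CPM in fat (log2 1.90 ± 0.27, SE, edgeR adjusted p = 0.00175), and Slc27a1, a fatty acid transport protein, was lower at 17.1, 12.6 and 19.7 against 59.7, 49.8 and 66.7 CPM (log2 -1.83 ± 0.28, adjusted p = 0.00248). Both passed without any 1 library. Of 10 glycerolipid genes, Lpin2, a phosphatidate phosphatase, was higher (log2 1.84 ± 0.25, adjusted p = 0.00152), and Agpat3, an acyltransferase, Lpin1, a second phosphatidate phosphatase, and Dgat1, which completes triglycerides and was named after its values were seen, were lower (log2 -1.31, -1.67 and -2.21, adjusted p = 0.00619, 0.0120 and 0.0201). Lpin2 and Lpin1 thus moved in opposite directions, at 144, 106 and 134 against 40.0, 38.5 and 28.9 CPM for Lpin2 and at 24.7, 43.2 and 16.4 against 95.7, 85.1 and 84.0 CPM for Lpin1. Dgat1 missed the threshold without fat replicate 2, 4 or 6 (adjusted p = 0.116, 0.0610 and 0.0598) and Lpin1 without fat replicate 2 (0.0581). Of 10 tested genes of other elongation and desaturation steps, Hacd2, a dehydratase of the elongation cycle, was the 1 call in edgeR and in limma voom, while DESeq2 made 2, at 14.1, 42.6 and 21.7 against 7.43, 9.78 and 7.16 CPM (log2 1.68 ± 0.45, adjusted p = 0.0306), and leaving out islet replicate 4 ended the call (0.0582), as did leaving out fat replicate 2, 4 or 6 (0.133, 0.0958 and 0.118).

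Without islet libraries 2 and 4, the log2 differences of the neighbouring genes called above kept their direction, with that of Npc2 given above. In that fit the log2 difference was 2.20 for Nceh1, 1.77 for Soat1, 1.59 for Lipa and 1.78 for Npc1. It was 1.99 for Acsl1, 1.82 for Lpin2 and 1.34 for Hacd2. Among the genes lower in islet it was -1.06 for Erlin1, -1.66 for Slc27a1, -1.14 for Agpat3, -2.51 for Lpin1 and -1.92 for Dgat1. Thrsp was still without islet counts.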

How the data were processed

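The authors deposited raw counts per gene, not normalised. Per the labels' protocols, libraries were made from 10 ng of RNA with a stranded low-input kit, and the submitters' processing notes name STAR, featureCounts, Subread 1.6.4 and GRCm38. Annotation and strand setting were not given in the sources used here. Of 50600 identifiers, 99.56% matched GENCODE M21, which gave positions, exon lengths, overlaps and shared 50-base words.

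Counts were fitted with edgeR 4.0.16 in R 4.3.3 (filterByExpr, TMM factors, robust quasi-likelihood test, tissue as the single covariate), with p-values adjusted over 12152 genes. SE is the absolute log2 difference over the square root of F. Ratios within a library added 0.5 counts and were tested by exact permutation in scipy 1.17.1. Floors of 3 counts cover counting error alone, as the reads carry no molecular identifiers.

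The members and lists were chosen with earlier results of these data known. Every member is accounted for, and companion lists name up to 2 genes per direction by smallest adjusted p. The design text calls the tissues autologous, so a shared replicate number was taken as the same animal. Same-numbered libraries' deviations from the tissue means correlated across genes at 0.04, 0.09 and 0.02 for numbers 2, 4 and 6. p-values measure the spread between these libraries, which may be partly technical. Alternatives were RLE and upper-quartile factors, no filter, a filter of 1 CPM, DESeq2 1.42.0, limma voom (limma 3.58.1), the replicate block, protein-coding genes alone, and libraries left out.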

Additional observations from a re-analysis of the deposited data

How the results depend on the processing

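Of 435 values of the members under alternatives, 370 kept their direction and their side of the threshold, and 0 of the 4 members past the threshold changed sign. The 2 members higher in islet became 1 with RLE factors, upper-quartile factors, no low-count filter, the replicate block or protein-coding genes alone, and 0 to 2 with 1 library left out. The 2 members lower became 1 to 2 with 1 library left out and 6 without islet libraries 2 and 4, where 3 were higher. With 1 library left out, companion genes higher ran from 4 to 10 and lower from 3 to 9, and all genes higher from 466 to 1649 and lower from 593 to 2022. Without islet libraries 2 and 4, 11 companion genes were higher and 15 lower, and 2064 genes were higher and 2916 lower. With the replicate block, 884 genes were higher and 1103 lower, and among the members the block ended the call of Fads1 alone.

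Among members that did not pass, 13 changed sign. Acat2 turned to -0.0404 with RLE factors, -0.0408 with DESeq2, -0.0431 with protein-coding genes alone, -0.0199 with upper-quartile factors, -0.0324 with no filter, -0.37 with voom, -0.35 with the block and -1.12 without islet libraries 2 and 4. Idi1 turned to -1.93 with voom, -0.81 with the block and -7.65 without both. Also without both, Fdft1 was -0.52, Sqle 0.17, Cyp51 -0.70, Ebp -0.56, Sc5d -0.64, Fasn 0.0559 and Elovl6 0.64. Fasn was 0.11 with voom and 0.0682 with the block, Hsd17b7 -0.0478 with the block, and Nsdhl 0.000142 with the 1 CPM filter. With 1 library left out, log2 values ran from -1.18 to 0.38 for Acat2, -1.46 to 0.78 for Idi1, -0.30 to 0.79 for Cyp51, -0.23 to 1.03 for Msmo1, -0.30 to 0.31 for Nsdhl, -0.64 to 0.50 for Hsd17b7, -0.45 to 0.47 for Sc5d, -0.0898 to 0.31 for Srebf2, -0.49 to 0.13 for Fasn and -0.66 to 0.35 for Elovl6. The cause was not tested. Depth limits the low members: 15 of 31 had under 100 counts over the islet libraries.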

Other observations

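The members varied more between islet than between fat libraries. The coefficient of variation of CPM was higher in islet for 28 of the 29 tested members, Fasn being the exception, with a median of 53.2% in islet and 19.4% in fat. Over all genes tested the medians were 41.2% and 18.4%, and 81.9% of genes varied more in islet.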
